A study of Mus musculus with 6 samples.

Results

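The 3 control libraries of an RNA-seq study of MC38 cells were described by themselves, as absolute levels, ranks and replicate spread. They were chosen by their titles, KOCtrl_1 to KOCtrl_3, and their genotype label, Ctrl, and make up 3 of the 6 libraries of the series. The other 3 libraries carry titles of an SRC-1 knockout and were not compared with them. MC38 is a cell line from a colon tumour induced with a carcinogen in a mouse, and is often grafted into immune-competent mice. Per the labels, all the cells had received IFN-gamma at 100 ng per mL for 24 hours. No sample without IFN-gamma was analysed here, so a level cannot be divided into what the cells made before and what they made after the cytokine. The labels do not say how the control line was made, or whether it is 1 clone or a pool. Nor do they say that the 3 libraries came from separate cultures, so their spread may be technical in part.

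IFN-gamma is a cytokine of T cells and natural killer cells. It binds the receptor pair Ifngr1 and Ifngr2, which signals through the kinases Jak1 and Jak2. The signal acts on gamma-activated sites in promoters and switches on transcription factors such as Irf1, which binds a second sequence, the interferon-stimulated response element. In tumour cells the pathway is known for raising class I antigen presentation, chemokines that attract T cells, and the checkpoint ligand PD-L1.

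Levels are given in TPM, read counts divided by transcript length and scaled to a fixed sum per library, so that genes can be compared with each other. A gene is counted as detected here when it reached 1 TPM in all 3 libraries. The 3 values of a gene are always in the order control 1, control 2, control 3, and means are ± SD over these 3 libraries (n = 3).

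Some of the abundant interferon-inducible mRNAs start at promoters that carry these sequences in textbook form. The 5 promoters shown all hold a match, and their genes are among the abundant interferon-inducible mRNAs described below. Promoters of Cd274, Psmb9, Tap1 and Ripk3, searched in the same way, held no match and are not printed. The stretches are the 250 bases before the annotated start, 5′ to 3′ on the strand of the gene, from RefSeq on GRCm38.p6. Capitals mark every match to the response element, searched as GAAANNGAAA on both strands, or to the gamma-activated site, searched as TTCNNNGAA, which reads the same on both strands. Isg15, a ubiquitin-like modifier, has 3 overlapping matches to the response element, in 1 run between 78 and 57 bases before its start. Gbp2, a guanylate-binding protein of cell-autonomous defence, has 1 at 59 to 50 bases, B2m, the light chain of class I molecules, has 1 at 139 to 130 bases, and Cxcl10, a T-cell chemokine, has 1 at 213 to 204 bases. Irf1 has 1 gamma-activated site 90 to 82 bases before the first of its annotated starts.
Isg15 (chr4:156200819-156201068, minus strand): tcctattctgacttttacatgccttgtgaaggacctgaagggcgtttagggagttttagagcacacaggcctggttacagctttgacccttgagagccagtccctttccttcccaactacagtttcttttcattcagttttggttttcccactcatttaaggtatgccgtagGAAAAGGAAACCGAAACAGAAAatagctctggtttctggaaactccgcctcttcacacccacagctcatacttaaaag
Gbp2 (chr3:142620413-142620662, plus strand): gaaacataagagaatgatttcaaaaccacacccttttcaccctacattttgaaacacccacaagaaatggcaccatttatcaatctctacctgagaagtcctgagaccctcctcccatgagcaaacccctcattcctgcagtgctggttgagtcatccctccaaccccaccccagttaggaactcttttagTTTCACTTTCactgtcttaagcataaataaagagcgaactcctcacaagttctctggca
B2m (chr2:122147437-122147686, plus strand): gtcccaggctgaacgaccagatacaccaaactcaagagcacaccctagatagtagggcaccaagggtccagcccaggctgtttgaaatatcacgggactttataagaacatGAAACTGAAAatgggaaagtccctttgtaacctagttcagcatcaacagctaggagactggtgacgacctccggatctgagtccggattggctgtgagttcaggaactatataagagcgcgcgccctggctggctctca
Cxcl10 (chr5:92348890-92349139, minus strand): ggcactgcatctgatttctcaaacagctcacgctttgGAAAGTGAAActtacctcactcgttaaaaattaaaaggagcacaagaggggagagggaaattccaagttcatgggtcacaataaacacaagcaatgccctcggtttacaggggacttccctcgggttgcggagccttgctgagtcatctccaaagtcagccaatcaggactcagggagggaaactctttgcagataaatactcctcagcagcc
Irf1 (chr11:53769764-53770013, plus strand): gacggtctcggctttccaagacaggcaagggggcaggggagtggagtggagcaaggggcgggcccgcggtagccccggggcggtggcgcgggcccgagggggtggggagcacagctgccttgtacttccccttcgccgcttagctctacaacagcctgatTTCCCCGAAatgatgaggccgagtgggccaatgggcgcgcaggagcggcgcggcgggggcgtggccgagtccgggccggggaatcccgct

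These matches were counted over 13122 genes of the table with a RefSeq promoter, each a window from 250 bases before to 50 bases after a start. The response element stood in 3.8% of all of them and in 51 of 186 genes of the interferon lists, 27.4%. Within those lists it stood in 24 of 61 genes at 100 TPM or more, 39.3%, and in 8 of 43 genes under 1 TPM, 18.6%. Over all genes the shares were 6.38% at 100 TPM or more and 3.76% under 1 TPM. The gamma-activated site stood in 8.63% of all genes and in 34 of 186 genes of the interferon lists, 18.3%. Its share was 19.7% among interferon genes at 100 TPM or more and 18.6% among those under 1 TPM. These shares describe letters in a window and not binding.

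The libraries held 17061954, 17045286 and 16862043 expected counts, and 14520, 14534 and 14542 genes had a count. The table lists 16583 genes, 16440 of them protein-coding. Of all genes listed, 10670 (64.3%) reached 1 TPM in all 3 libraries, 7179 reached 10 TPM, 1341 (8.09%) reached 100 TPM and 150 reached 1000 TPM. The counts of detected list members given below are to be read beside the 64.3% of all genes. The RNA was concentrated in few genes: the 10 most abundant held 9.31 ± 0.23% of all TPM, the top 100 held 39.7 ± 0.57% and the top 1000 held 73.0 ± 0.43%. The plot of abundance by rank shows 3 curves that lie on each other.

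**Figure D1:**
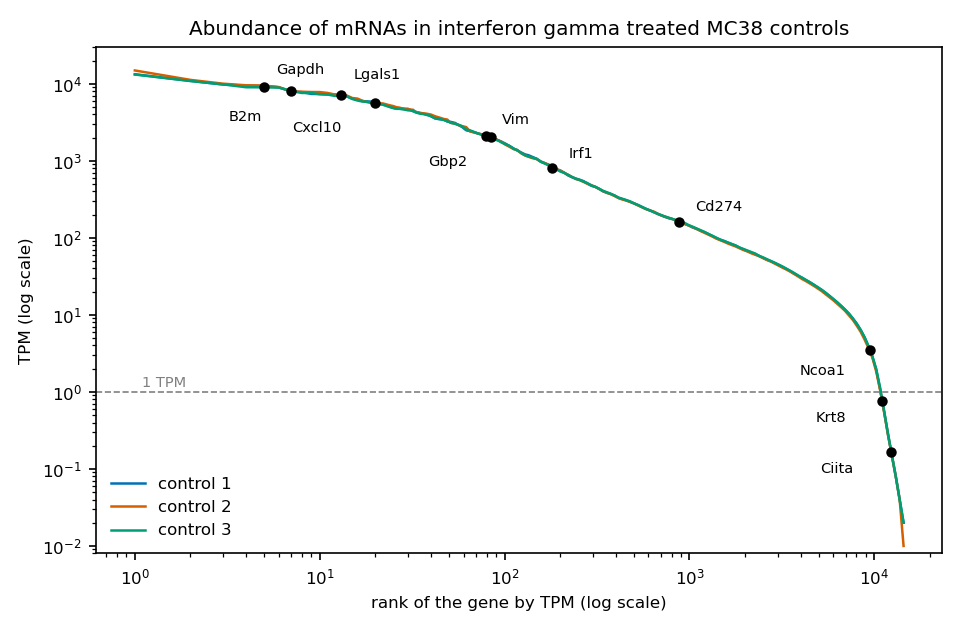
TPM of each gene against its rank in each of the 3 control libraries, on log axes, with 11 genes marked at their mean level. B2m and Cxcl10 lie among the 20 most abundant mRNAs, Irf1 and Cd274 among the top 1000, and Krt8 and Ciita under the dashed line at 1 TPM.

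Ribosomal protein mRNAs led the ranking by TPM. The 88 ribosomal protein genes held 28.3 ± 0.54% of all TPM, had a median of 2520 TPM and filled 17 of the 25 highest ranks. Rps26, a small-subunit protein, led all genes with 13292, 14877 and 13174 TPM, and control 2 was the highest. Rpl41, Rpl35 and Rpl38 of the large subunit followed with means of 10990 ± 205, 9869 ± 131 and 9270 ± 256 TPM. This lead depended on the division by transcript length. By read count Rps26 had rank 31, Rpl41 rank 50, Rpl35 rank 58 and Rpl38 rank 283, and Rps2 was the highest of the class at rank 4. Rps12 (9142 TPM), Rplp1 (7413), Rps27 (7347), Rps2 (7338) and Rps15 (7008) stood within the first 14 ranks. Rpl10, Rpl32, Rpl12, Rpl8, Rpl23a, Rpl19, Rps23 and Rps10 filled the rest of the class in the top 25, between 4881 and 6337 TPM. Eef1a1, the factor that brings aminoacyl-tRNA to the ribosome, had 5895, 5564 and 5843 TPM. For 1 member the level depends on how reads were shared: Rps6 had 62.9, 58.7 and 54.6 TPM, while its pseudogene Rps6-ps4 had 4646, 4663 and 4519 TPM, and reads of near-identical copies cannot be told apart in these values. Those 2 genes were picked after their values were seen.

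The other leading mRNAs belonged to glycolysis, iron and metal storage, the cytoskeleton and the interferon response. Gapdh, a glycolytic enzyme, had 8991, 9549.9 and 9005 TPM, rank 5, and held the largest number of reads of all genes. Ftl1 and Fth1, the light and heavy ferritin chains that store iron, had 7778 ± 177 and 4021 ± 31.0 TPM, a ratio of 1.93 ± 0.056. Mt2 and Mt1, metallothioneins that bind zinc and copper, had 6954, 7812 and 7319.6 TPM and 3213, 3759.9 and 3262 TPM, and control 2 was the highest for both. Lgals1, galectin-1, had 7348, 7043 and 6929 TPM and made up 83.1 ± 0.73% of the galectin TPM. S100a6, a calcium-binding protein, had 5956, 5654 and 5696 TPM and S100a4, which is often high in motile cells, 1804, 1577 and 1734 TPM. B2m stood at rank 7 and Cxcl10 at rank 20, both described below.

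Within some families 1 member carried nearly all of the TPM, while in others several members shared it. Aldoa had 1546 ± 23.9 TPM, against 0.663 TPM for Aldoc. Slc2a1, the basal glucose transporter, held 99.9% of the TPM of 5 glucose transporters with 180.2 ± 8.60 TPM. Ldha, the subunit that favours lactate formation, had 1122, 1054 and 1092 TPM and Ldhb 30.9, 28.5 and 26.5 TPM, a ratio of 38.2 ± 2.7. Hk1 held 78.1 ± 1.2% of the hexokinase TPM with 66.2 ± 0.864 TPM, and Hk2 had 17.8 ± 1.54 TPM. The cytoplasmic actins Actg1 and Actb had 1560 ± 129 and 1464 ± 69.8 TPM, whereas the smooth muscle actin Acta2 had 0.650 ± 0.195 TPM. Tmsb10, an actin-binding thymosin, had 3603 ± 164 TPM, 14.1 ± 1.7 times the level of its relative Tmsb4x at 257 ± 18.6 TPM. Tubb5 led the beta tubulins with 743 ± 29.5 TPM, Tuba1b the alpha tubulins with 1645 ± 24.1, Anxa1 the annexins with 1340 ± 84.9, Myl6 the myosin light chains with 1088 ± 33.1, and Tpm1 the tropomyosins with 616 ± 8.85. Their shares of these families were 53.6% for Tubb5, 59.1% for Tuba1b, 40.0% for Anxa1, 58.2% for Myl6 and 36.2% for Tpm1.

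The label calls the cells colorectal cancer cells, and the markers of colon epithelium went against that label at the mRNA level. Epithelial core genes cover junctions, keratins and the factors that keep epithelia polarised. Of 32 measured, 3 were detected, and the whole list summed to 8.96, 10.02 and 9.35 TPM. None of its 7 defining markers reached 1 TPM. Krt8, a keratin of simple epithelia, had 0.71, 0.65 and 0.89 TPM. Epcam, the epithelial adhesion molecule, and Cdh1, E-cadherin, each had 1 count in the 3 libraries together, as did the keratins Krt18 and Krt19. The splicing regulator Esrp1 had 20 counts and the transcription factor Grhl2 26, at 0.150 ± 0.0656 and 0.157 ± 0.0208 TPM. Those detected were Llgl2, a polarity protein, with 3.84, 4.17 and 3.85 TPM, Elf3, an epithelial ETS factor, with 1.38, 1.23 and 1.95 TPM, and Pkp3, a desmosome plaque protein, with 1.45, 1.56 and 1.27 TPM. The claudins, sealing proteins of tight junctions, gave 1 of 11 detected: Cldn12 with 30.6, 28.2 and 33.4 TPM.

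Genes of intestinal identity were low as well. Of 20 measured, 3 were detected, among them the transcription factors Gata6 with 3.04, 3.27 and 3.12 TPM and Klf5 with 2.68, 2.79 and 2.31 TPM. The brush-border protein Vil1 had 4 counts in all and the intestinal cadherin Cdh17 13, at 0.0400 ± 0.0173 and 0.113 ± 0.0153 TPM. The defining factors Cdx2 and Hnf4a were not analysed here. Of 18 stem cell and Wnt genes 8 were detected. Cd44, a hyaluronan receptor, had 156, 158 and 166 TPM, Lrig1, a brake on growth factor receptors, 84.7, 76.5 and 88.8 TPM, Sox9 7.01, 7.83 and 7.65 TPM and the Wnt effector Tcf7 7.22, 6.7 and 7.45 TPM. The stem cell markers Lgr5 and Ascl2 had 1 count each, and Axin2, a feedback target of Wnt signalling, had 0.25, 0.27 and 0.28 TPM. Of 11 genes of secretory cells, Dclk1, a tuft cell kinase, was the only one detected, with 3.72, 3.6 and 3.38 TPM, and the goblet mucin Muc2 had 5 counts.

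The fibroblast and mesenchymal list was the one lineage list with most members detected, 29 of 39, and 10 of them reached 100 TPM. Among all genes listed, 64.3% were detected and 8.09% reached 100 TPM. Together the 39 members held 0.673 ± 0.028% of all TPM, against 0.000944% for the epithelial core. Vim, the intermediate filament of mesenchymal cells, had 2172, 2016 and 2098 TPM, rank 79, and made up 84.9 ± 0.36% of the TPM of 15 intermediate filament genes. The ratio of Vim to Krt8 was 2840 ± 420. Fn1, the matrix protein fibronectin, had 457, 453 and 498 TPM, Sparc, a collagen-binding matrix protein, 388, 366 and 389 TPM, and Timp2, an inhibitor of matrix proteases, 363, 349 and 368 TPM. Dcn, the collagen-binding proteoglycan decorin, had 327, 306 and 329.6 TPM. Control 2 was the lowest of the 3 libraries for each of these 5 genes. Among all genes at 10 TPM or more it was the highest for only 20.3%, so low values there are not particular to this list. Transcription factors of mesenchymal cells were present too: Twist2 had 290.2, 288 and 296 TPM, and Prrx1, Twist1, Snai1, Zeb1 and Snai2 had 48.04 ± 1.37, 47.4 ± 2.78, 26.1 ± 1.56, 22.6 ± 1.13 and 11.6 ± 0.0611 TPM. Of the receptors for platelet-derived growth factor, Pdgfra had 20.2, 16.2 and 18.3 TPM and Pdgfrb 2.6, 2.42 and 3.02 TPM.

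The collagen pattern was uneven. Col3a1, the chain of fibrillar collagen III, had 331, 289 and 336 TPM and held 49.9 ± 1.6% of the TPM of 21 collagen chains. Col1a1 and Col1a2, the chains of collagen I that fibroblasts usually make with it, had 8 and 6 counts in all 3 libraries, or 0.0400 ± 0.0458 and 0.0300 ± 0.0300 TPM. Col6a1, Col4a1, Col4a2 and Col5a1 lay between at 87.2 ± 3.77, 58.6 ± 2.26, 43.2 ± 0.765 and 40.3 ± 1.31 TPM. Other fibroblast and contractile markers had few reads: over the 3 libraries Thy1 had 2 counts, Fap 4, Lox 6 and Tnc 2, and Tagln had 0.247 ± 0.170 TPM. N-cadherin, Cdh2, was the leading cadherin at only 5.05, 4.99 and 5.08 TPM, followed by Cdh11 at 4.62, 3.64 and 3.74 TPM. The defining markers of the mesenchymal list thus split 5 detected to 2 not detected, and the cells are named MC38 throughout rather than by a lineage.

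**Figure D2:**
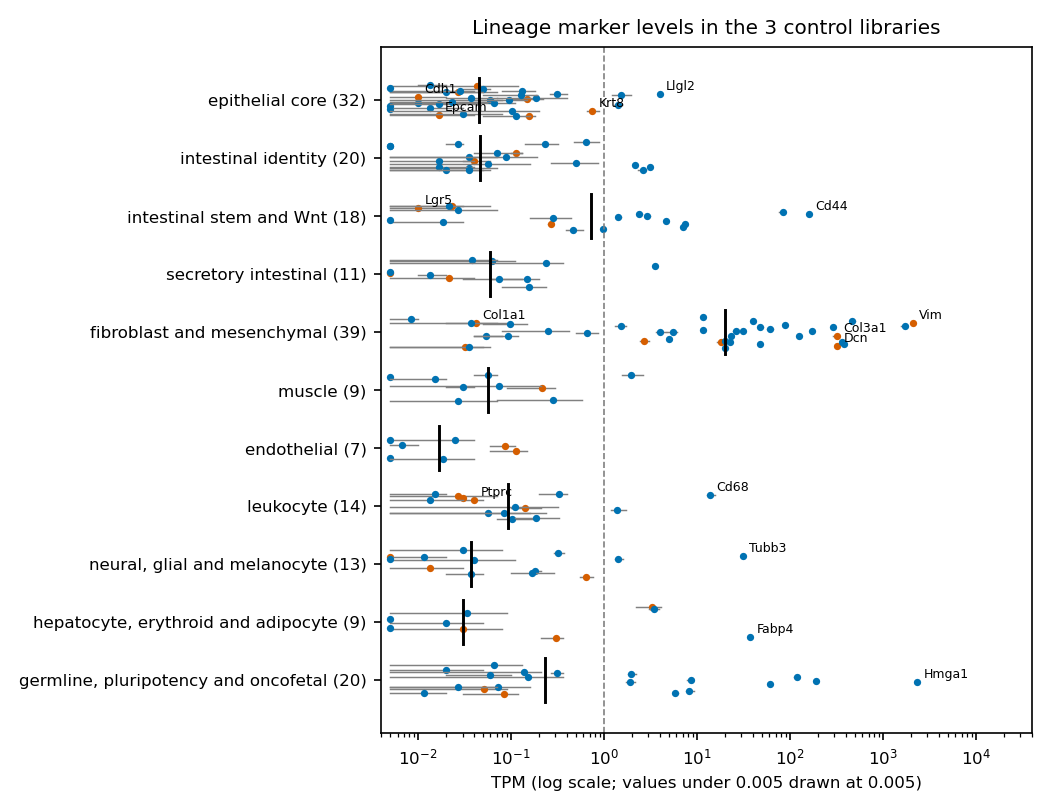
Mean TPM on a log axis of each measured member of 11 lineage lists, with the number measured in brackets, the range over the 3 libraries as a grey line, defining markers in orange, other members in blue and the median of the list as a black bar. The median is 20 TPM for the mesenchymal list and under 1 TPM for the other 10 lists.

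Markers of other cell types were looked for because a culture can hold strays. No endothelial gene of 7 was detected, and Cdh5 and Pecam1 had 0.113 ± 0.0473 and 0.0867 ± 0.0252 TPM. Cd34, a surface sialomucin of endothelium, blood progenitors and some fibroblasts, nevertheless had 1139, 1079 and 1216 TPM, rank 132, and was singled out after its value was seen. Of 14 leukocyte genes, Cd68, a lysosomal protein, had 12.7, 13.4 and 15.6 TPM and Lyz2, lysozyme, 1.18, 1.74 and 1.21 TPM. The defining leukocyte markers Ptprc, Cd3e, Cd79a and Adgre1 had 7, 1, 4 and 3 counts over the 3 libraries. Of 9 muscle genes, Tnnt2 was detected with 2.61, 1.61 and 1.56 TPM, and the defining marker Des had 0.25, 0.3 and 0.09 TPM. Of 13 neural, glial and melanocyte genes, Tubb3, a neuronal beta tubulin, had 30.3, 32.4 and 30.6 TPM and Mitf 1.3, 1.58 and 1.37 TPM, while Pmel had 0.643 ± 0.107 TPM, Gfap had 1 count and Sox10 had none. Fabp4, a fatty acid carrier of fat cells, had 36.1, 36.1 and 39.4 TPM with Adipoq at 1 count, Afp had 3.06, 3.22 and 3.93 TPM with Alb at 0.307 ± 0.0839 TPM, and the globin Hba-a1 had 3.46, 4.1 and 2.22 TPM, a level shared with its twin copy.

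Genes usually kept to embryo, germline and tumours gave 9 of 20 detected. Hmga1, a chromatin architectural protein of embryonic and tumour cells, had 2312, 2409.8 and 2285 TPM, rank 68, and its relative Hmga2 119.96, 111 and 122 TPM. Maged1 had 194, 182 and 192 TPM and the RNA-binding oncofetal proteins Igf2bp2 and Igf2bp3 had 60.5 ± 2.06 and 8.57 ± 0.598 TPM. The germ cell markers Ddx4 and Dazl had 8 and 5 counts. The Y-linked gene Uty had 0.12, 0.16 and 0.15 TPM, shared reads included.

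Of 37 Hox genes, which record position along the body axis, 25 were detected, close to the 64.3% detected among all genes listed. Their summed level was 235 TPM, and their median of 3.17 TPM lay under the 6.69 TPM of all genes. The Hoxc cluster held 107 ± 1.1 TPM, Hoxa 60.1 ± 1.0, Hoxd 50.7 ± 1.8 and Hoxb 17.7 ± 0.96. By paralog group, numbered from the anterior end, groups 9 to 13 held 151 ± 2.2 TPM, groups 5 to 8 held 64.8 ± 2.9 and groups 1 to 4 held 19.5 ± 0.83. Hoxc10 was the highest with 37.6, 39.5 and 42.1 TPM, and Hoxc6, Hoxc9 and Hoxc11 followed with 26.1, 22.2 and 24.4 TPM, 21.4, 21.7 and 19.3 TPM and 17.2, 16.1 and 15.2 TPM. The last group held Hoxd13 with 14.2, 14.6 and 14.9 TPM and Hoxb13, a gene of the hindgut and tail end, with 7.51, 7.11 and 7.77 TPM, while Hoxc13 and Hoxa13 had 1.44 ± 0.144 and 0.400 ± 0.108 TPM. Neighbours within a cluster differed: Hoxd8 had 12.3 ± 0.341 TPM, Hoxd11 0.107 ± 0.00577 TPM and Hoxd12 no count. In the Hoxb cluster, Hoxb5 and Hoxb6 had 2.70 ± 0.145 and 5.23 ± 0.675 TPM, Hoxb7 and Hoxb8 had 4 and 5 counts, and Hoxb2 had none.

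**Figure D3:**
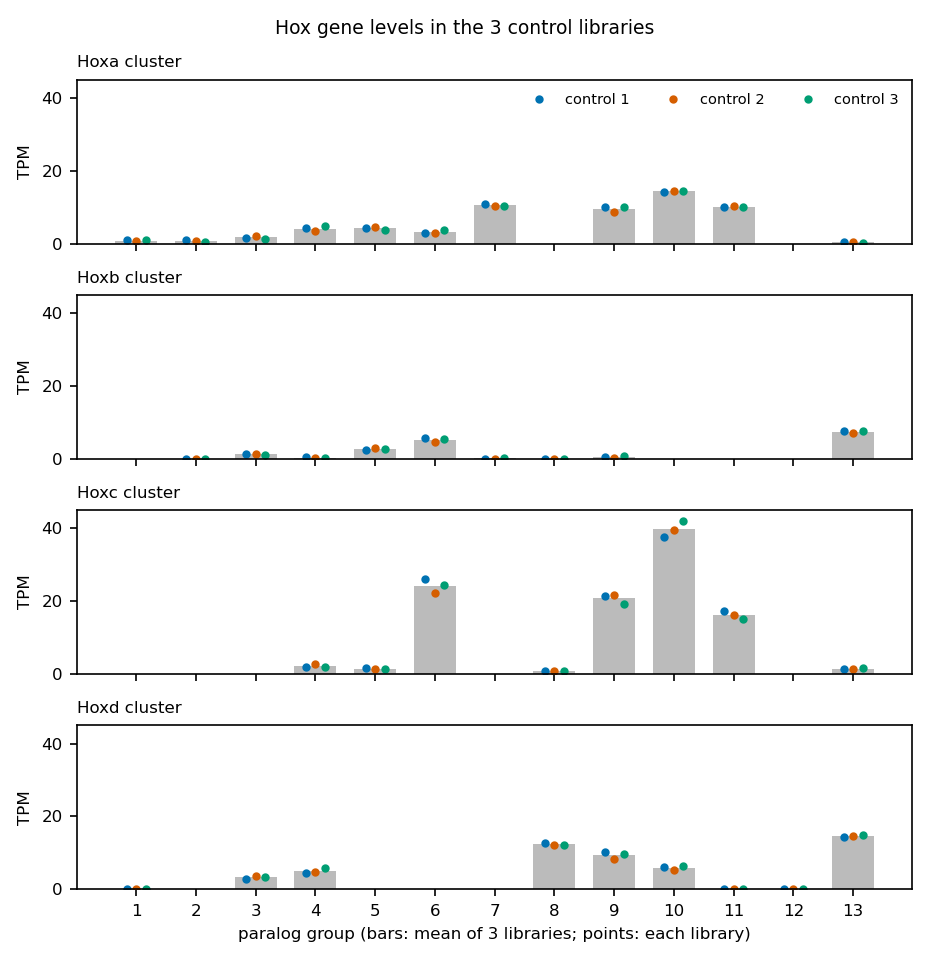
TPM of 37 Hox genes by cluster and paralog group, with bars for the mean of 3 libraries and points for each library. The tallest bar is Hoxc10 at a mean of 39.8 TPM, and groups without a bar hold no gene, a gene near 0, or one not analysed here (Hoxb1, Hoxc12).

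The interferon lists took up a similar share of the RNA in each of the 3 libraries. The 250 measured genes of 11 interferon lists are 1.51% of the genes in the table and held 5.96, 6.05 and 6.25% of all TPM, a mean of 6.09 ± 0.15%, or 5.29 ± 0.14% without B2m. Their median level was 41.9 TPM, against 6.69 TPM for all genes. Of them 78 reached 100 TPM in all 3 libraries, 31.2%, against 8.09% of all genes, and 8 were among the 100 most abundant mRNAs. The share was uneven, since the top 5 genes, B2m, Cxcl10, Ifitm3, Ccl2 and Cxcl1, made 36.0% of it. At the other end, 29 of the 250 had means under 0.1 TPM. The lists hold known targets of interferon, but also a full chemokine list, the interferon genes and the receptors and signalling proteins, not all of which answer interferon. Without those 3 lists, a choice made after the values were seen, the other 188 genes held 4.59 ± 0.12% of all TPM. Such shares describe how much of the RNA the genes take up and not an induction.

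**Figure D4:**
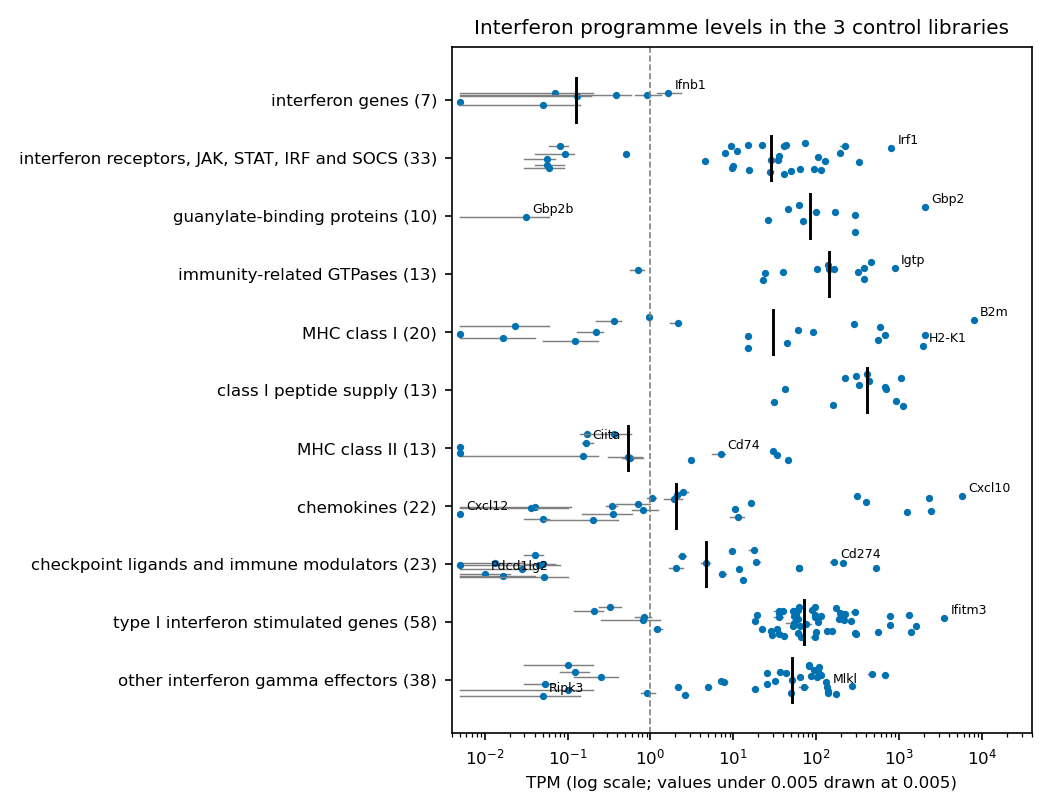
Mean TPM on a log axis of each measured member of 11 interferon lists, with the number measured in brackets, the range over the 3 libraries as a grey line and the median of the list as a black bar. Medians run from 0.127 TPM for the interferon genes themselves to 408 TPM for class I peptide supply, and MHC class II lies at 0.53 TPM beside class I at 29.9 TPM.

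The signalling chain was present from receptor to transcription factor. The receptor chains Ifngr1 and Ifngr2 had 28.01 ± 1.45 and 40.3 ± 2.29 TPM, and the kinases Jak1 and Jak2 had 49.3 ± 1.97 and 22.1 ± 1.67 TPM. Irf1 had 795, 818 and 811 TPM, rank 181, the highest of the 33 signalling genes and 28.2 ± 1.9 times the level of its antagonist Irf2. Stat2 and Irf9, members of the complex that type I interferon activates, had 181, 193 and 205 TPM and 98.7, 106 and 106 TPM, and Irf7 had 192, 243 and 235 TPM with control 1 the lowest. The brakes on the pathway were present as well: Usp18, which limits type I receptor signalling, had 117, 132 and 137 TPM, Ptpn2, a phosphatase of Jak and Stat proteins, 114, 107 and 120.1 TPM and Socs1, an inhibitor of Jak kinases, 89.2, 97.3 and 93.4 TPM. Socs3 had 15.1 ± 0.412 TPM, and Irf8, Stat4, Cish and Ptpn6 were each under 0.1 TPM. Type I receptor chains differed, with Ifnar2 at 73.5 ± 1.48 TPM and Ifnar1 at 9.25 ± 0.738 TPM.

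Interferon genes themselves were nearly silent. Of 7 measured, Ifnb1 alone was detected, with 1.38, 1.21 and 2.35 TPM from 32 counts, and Ifnz had 0.65, 0.72 and 1.34 TPM. Ifna4 and Ifnk had 1 count each and Ifna13 none. Ifng was not analysed here.

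Guanylate-binding proteins coat vacuoles and bacteria inside cells, and 9 of 10 were detected. Gbp2 had 1996, 2024 and 2087 TPM and made 66.0 ± 0.084% of the family. Gbp3 and Gbp4 had 283, 298 and 295 TPM and 286, 282 and 303 TPM, Gbp6 159.5, 165 and 173 TPM and Gbp7 103, 91.4 and 101 TPM. Gbp2b, a close relative of Gbp2, had 3 counts in the 3 libraries, which is at the floor of 3 counts, or 0.0589 CPM (read counts scaled to library size) over the group. The immunity-related GTPases, which attack the same vacuoles in mice, had 12 of 13 detected and 8 at 100 TPM or more. Igtp led with 869, 866 and 921 TPM, followed by Tgtp1 and Tgtp2 with 453 ± 9.92 and 380.5 ± 2.30 TPM, whose reads are shared between the near-identical copies, Irgm1 with 372, 356 and 389.97 TPM and Iigp1 with 322, 300.1 and 333 TPM.

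Class I antigen presentation held 1.43 ± 0.025% of all TPM. B2m had 7935, 7871 and 8082 TPM and took rank 7 both by TPM and by read count. The classical heavy chains H2-D1 and H2-K1 had 2002, 2087 and 2123 TPM and 1903, 1939 and 1969 TPM, a ratio of H2-K1 to H2-D1 of 0.936 ± 0.013, and B2m stood at 4.11 ± 0.056 times H2-K1. Among nonclassical chains, H2-Q6, H2-Q4 and H2-Q7 had 676 ± 37.3, 584 ± 19.2 and 552 ± 17.2 TPM, and H2-T23, the Qa-1 chain read by natural killer cells, 92.2 ± 1.25 TPM. The H2 genes share reads, so the level of the group is firmer than that of 1 chain. Nlrc5, the transactivator of class I genes, had 60.01, 58.6 and 61.4 TPM.

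All 13 genes of class I peptide supply were detected, and 11 of them reached 100 TPM. The proteasome activator subunits Psme1 and Psme2 had 688 ± 8.33 and 1101 ± 26.3 TPM, and the loading chaperone Calr 1043 ± 55.8 TPM. The immunoproteasome subunits could be set beside the constitutive subunits they replace. Psmb8 had 905, 958 and 919 TPM, 2.37 ± 0.086 times Psmb5 at 395, 389 and 388 TPM. Psmb9 had 453, 440.01 and 423 TPM, 1.33 ± 0.06 times Psmb6 at 323, 338 and 327 TPM. For the third pair the order was turned, with Psmb10 at 305, 308 and 301 TPM, 0.605 ± 0.016 times Psmb7 at 520, 498 and 495 TPM, and in each pair the 3 libraries lay on the same side of 1. The peptide transporter chains Tap1 and Tap2 had 313, 334 and 323 TPM and 218, 229 and 223 TPM, and Tapbp, which links them to class I, 388, 408 and 427 TPM. Tap1 and Psmb9 are transcribed in opposite directions from 1 shared stretch, and their RefSeq promoter windows overlap (chr17:34187306-34187605 on the plus strand and chr17:34187281-34187580 on the minus strand). Neither window holds the 2 letter patterns searched.

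Class II presentation was detected in part. Its transactivator Ciita had 0.2, 0.15 and 0.15 TPM, and the chains H2-Aa, H2-Ab1 and H2-Eb1 had 19, 6 and 8 counts over the 3 libraries, at means of 0.573, 0.170 and 0.150 TPM. The invariant chain Cd74 had 5.59, 7.71 and 7.82 TPM, with control 1 the lowest. The accessory genes were higher: Ifi30, a lysosomal thiol reductase, had 48.7, 44.00 and 43.98 TPM, H2-DMb1 35.3, 35.7 and 30.6 TPM and the protease Lgmn 29.99, 30.5 and 28.6 TPM. H2-DMa, the partner chain of H2-DMb1, had 3.23, 3.1 and 3.0 TPM.

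Chemokines held 1.24 ± 0.032% of all TPM, and 6 of 22 made nearly all of it. Cxcl10, which attracts T cells through Cxcr3, had 5457, 5776 and 5876 TPM, rank 20 by TPM and rank 6 by read count, and 45.9 ± 1.8% of the chemokine TPM. Ccl2, which attracts monocytes, had 2608, 2243 and 2496 TPM, and Cxcl1, which attracts neutrophils, 2328, 2210.4 and 2352 TPM. Control 2 was the lowest library for both, whereas control 1 was the lowest for Cxcl10. Ccl5, another T-cell chemokine, had 1242, 1181 and 1259 TPM, Ccl7 409, 376 and 408 TPM and Cxcl9, the second ligand of Cxcr3 measured, 303, 291 and 326 TPM. Below these 6 the levels dropped to 16.3 ± 0.327 TPM for Ccl8, 11.3 ± 2.13 for Ccl25 and 10.5 ± 0.275 for Cx3cl1. The neutrophil chemokines next to Cxcl1 were low, with Cxcl2 at 2.0, 2.63 and 2.83 TPM, Cxcl3 at 2.07, 2.34 and 1.91 TPM and Cxcl5 at 1.07, 1.16 and 0.92 TPM. Cxcl12, the ligand of Cxcr4 that fibroblasts usually secrete, had no count in any of the 3 libraries, and Cxcl16 had 2 counts. Cxcl11 was not analysed here.

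Of 23 checkpoint ligands and immune modulators 14 were detected. Cd274, which encodes PD-L1 (chromosome 19, 29362107 to 29388095 on GRCm38.p6), had 147, 169 and 172 TPM, rank 876, with control 1 the lowest. Its coefficient of variation, 8.38%, was larger than the 1.36% of B2m and the 1.47% of Irf1. That spread was not particular to Cd274: Isg15 had 5.83% and Ccl2 7.64%, and Irf7, given above, varied more than Cd274. Pdcd1lg2, which encodes the second PD-1 ligand, had 1 count. The costimulators Cd80 and Cd86 had 4 counts and 1 count, and the checkpoint molecules Cd276 and Vtcn1 5 counts and 1 count. Nos2, inducible nitric oxide synthase, had 518, 504 and 548 TPM, the highest of the list, and Lgals9, galectin-9, 196, 221 and 221 TPM. The ligands Pvr and Cd47 had 62.5 ± 3.15 and 61.2 ± 2.22 TPM. Ido1, the tryptophan-degrading enzyme, had only 1.68, 1.94 and 2.48 TPM, and its relative Ido2 had 8.83, 9.75 and 10.1 TPM. The natural killer cell ligands Ulbp1 and Raet1e had 18.8 ± 1.64 and 17.6 ± 1.90 TPM.

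Genes best known as type I interferon-stimulated genes were present almost throughout, 54 of 58 detected and 21 at 100 TPM or more. Ifitm3, a membrane protein that blocks virus entry, had 3384, 3521 and 3543 TPM, Ly6e 1541, 1628 and 1608 TPM and Bst2, which tethers budding virus, 1339.7, 1413 and 1432 TPM. Isg15, whose promoter holds the 3 overlapping matches shown above, had 1225, 1324 and 1376 TPM, and Ifitm2 had 797, 739.8 and 771 TPM. Control 1 was the lowest library for Ifitm3, Ly6e, Bst2 and Isg15, and control 2 for Ifitm2. Zbp1, a sensor of Z-form nucleic acid, had 531, 568 and 573 TPM, Oasl2 281, 315 and 319 TPM, Rsad2, viperin, 207, 229.6 and 238 TPM, and Ifit1 133 ± 6.93 TPM. Ifit3 had 260.3, 306 and 311 TPM and Ifit3b 75.3 ± 11.2 TPM, with reads shared between them. Those not detected were Ifitm1 (0.820 ± 0.527 TPM), Slfn5 (0.323 ± 0.104), Ifit1bl1 (0.210 ± 0.0794) and Ifit1bl2 (0.847 ± 0.182). Mx1, Mx2 and Oas1b were not analysed here.

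Of 38 other IFN-gamma effectors 31 were detected. The apolipoproteins L Apol9a and Apol9b, near-identical copies that share reads, had 667 ± 41.2 and 466 ± 37.5 TPM. Ly6a, a stem cell surface antigen, had 268, 267 and 277 TPM, Wars, tryptophanyl-tRNA synthetase, 165, 179.98 and 178 TPM, and Il18bp, the secreted inhibitor of interleukin 18, 133, 142 and 146 TPM. Death effectors were uneven. Gsdmd, the pore former of pyroptosis, had 139.99, 132 and 144 TPM, Casp4 125, 133 and 132 TPM and Casp1 49.7 ± 0.723 TPM. Mlkl, the effector of necroptosis, had 132, 129 and 139 TPM, while its kinase Ripk3 had 3 counts over the 3 libraries. The complement genes were also split, with C1ra at 114 ± 3.13, C1s1 at 80.7 ± 3.42 and C3 at 85.6 ± 6.49 TPM, C4b at 4.92 ± 0.432 TPM, and Serping1, the inhibitor of C1, with 6 counts and C2 with 5. Vcam1, an adhesion molecule for leukocytes, had 95.1, 90.1 and 94.1 TPM and Icam1 16.6, 19.2 and 19.3 TPM. The costimulatory receptor Cd40 had 13 counts.

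Tumour genes were read as levels only, since the table says nothing of mutations. Myc had 369.6, 401 and 409.6 TPM and Trp53 176, 194 and 187 TPM, both with control 1 the lowest. Of 34 tumour suppressors and oncogenes 33 were detected, where 64.3% of all genes listed were. Mdm2, Ctnnb1 and Hras had 77.2 ± 3.86, 57.9 ± 3.98 and 55.4 ± 5.41 TPM. Nras had 44.9 ± 0.284 TPM. Of the cyclin kinase inhibitors, Cdkn1a had 50.99 ± 1.33 TPM, Cdkn2b 34.4 ± 1.76 and Cdkn2a 8.35 ± 0.871 TPM. The mismatch repair genes Msh6 and Pms2 had 18.3 ± 1.0 and 6.81 ± 0.827 TPM, and Tert, the telomerase enzyme, was the member under 1 TPM, with 0.68, 0.44 and 0.46 TPM. All 20 proliferation genes were detected, led by Pcna at 360.3, 328 and 329, Birc5 at 213, 203 and 206 and Rrm2 at 210.2, 193 and 202 TPM. The 3 genes known to carry MC38 neoantigens were all expressed: Reps1 had 152, 157 and 159.99 TPM, Adpgk 40.4, 39.2 and 42.2 TPM and Dpagt1 34.99, 36.5 and 38.8 TPM.

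Of 33 cytokine and growth factor receptors 29 were detected, where 64.3% of all genes listed were. Axl, a receptor kinase common in mesenchymal tumour cells, had 198, 189 and 201 TPM and Tnfrsf1a, the main receptor of tumour necrosis factor, 119, 120.3 and 126 TPM. Fgfr1, Acvr1 and Il6st had 50.1 ± 1.54, 26.8 ± 0.713 and 22.1 ± 1.19 TPM. The epithelial receptor Egfr had 1.18, 1.27 and 1.1 TPM, and Kit had 1 count.

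The p160 coactivators, to which the gene targeted in the study belongs, were low to moderate. Ncoa3 had 14.1, 13.7 and 14.2 TPM and Ncoa2 6.77, 6.19 and 6.71 TPM. Ncoa1, which encodes SRC-1 (chromosome 12, 4247362 to 4477206 on GRCm38.p6), had 3.49, 3.42 and 3.48 TPM, rank 9477, the lowest of the 3, and the 3 ranges did not overlap. Its TPM varied by 1.09% between libraries, less than the 5.68% that counting error alone gives for 929 counts over 3 libraries.

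Absence was read from the counts. In the 3 control libraries together 707 genes, 4.26% of the table, had no count and 2160 had 1 to 3 counts. Below 1 TPM in all 3 were 5596 genes, and 317 more reached it in some libraries only. Every gene in the table had a count in at least 1 of the 6 libraries, so genes without reads in all of them are not part of these numbers. A count of 0 over the 3 libraries, which held 50969261 counts in sum, allows up to 3 counts (the one-sided 95% limit of counting error), or 0.0589 CPM. List members with no count included the epithelial genes Krt5, Ovol1 and Marveld2, the claudins Cldn2, Cldn5 and Cldn11, and the enteroendocrine genes Chga and Neurog3. They also included the cardiac actin Actc1, the neural genes Sox10 and Mbp, the endothelial receptor Tie1, the class II genes H2-DMb2 and H2-Ob, the costimulator Tnfsf4 and the brain metallothionein Mt3.

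The 3 libraries agreed closely with each other. Pearson correlations of log2(TPM + 1) over genes were 0.997 for controls 1 and 2 and 0.998 for each of the other 2 pairs, and genes are not independent replicates. The top 100 genes of the 3 libraries had 97 members in common. The common coefficient of variation beyond counting error, from edgeR, was 3.66% over 11431 genes. Chi-square values of their counts per degree of freedom, where counting noise alone gives about 1, were 3.73 for controls 1 and 2, 2.39 for 1 and 3 and 2.78 for 2 and 3. That check says only that the 3 libraries are not copies of each other. Control 2 was the highest of the 3 for 20.3% of genes at 10 TPM or more, against 36.4% for control 1 and 43.4% for control 3. The share of all genes for which each library was the lowest is not given here. Genes named above as lowest in 1 library therefore lack that background.

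Spread depended on depth. Genes with a mean of 1 to 10 counts had a median coefficient of variation of 49.6%, against 61.2% from counting error alone. For 10 to 100 counts the values were 15.1% against 16.7%. Genes of 100 to 1000 counts had 5.28% against 4.87%, those of 1000 to 10000 counts 3.32% against 2.35%, and those above that 2.9% against 0.806%. The median SD of only 3 values tends to fall below the true SD, so these pairs understate spread beyond counting error. Over 7208 genes with a mean of at least 10 TPM, the median SD of log2(TPM + 1) was 0.059, and 52 genes, 0.721%, had more than 0.2.

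**Figure D5:**
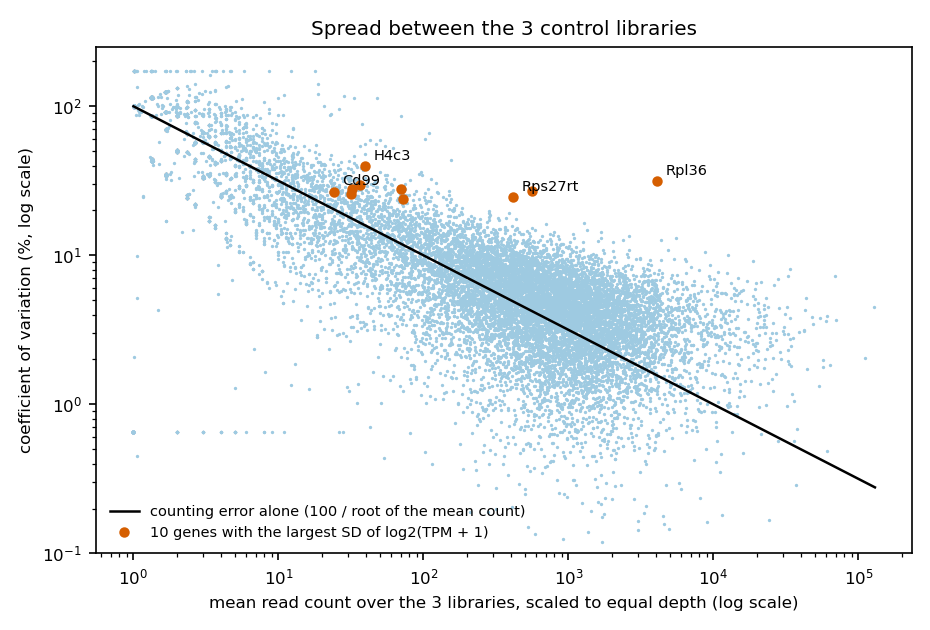
Coefficient of variation over the 3 libraries against the mean read count of each gene, on log axes, with the black line for counting error alone and orange points for the 10 genes with the largest SD of log2(TPM + 1). The median gene lies under the black line below 100 counts and above it from 100 counts upward, and Rpl36 lies far above its neighbours. The rows of points at the top are genes with counts in 1 library only.

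Of the 10 genes that varied most, 6 had shared reads, and 4 of those were histones. H4c3, a replication-dependent histone, had 13.8, 29.4 and 32.1 TPM, an SD of 0.64 on the log2 scale. The others were H4bc24, H2bc23 and H3c11. Over the 3 libraries H4c3 had only 119 counts, H4bc24 97, H2bc23 95 and H3c11 110, so counting error is large for them. H4bc24 and H2bc23 had almost the same values, 8.8, 13.8 and 7.93 TPM and 8.8, 13.3 and 7.93 TPM. Replication-dependent histone mRNAs lack a poly(A) tail, and whether that bears on their spread was not tested. Rpl36 was the most abundant of the 10, at 1745, 2821 and 1699 TPM, with control 2 the highest. Rps27rt, a retrotransposed copy, had 335, 269 and 199 TPM and Cd99, a surface glycoprotein, 308, 243 and 162 TPM, with control 1 the highest for both. The high TPM of Cd99 stands beside only 72 counts in all, 1.41 CPM, and whether both values rest on the same transcript was not tested. Npcd, Zswim7 and Lage3 completed the 10, at 10.3 ± 2.72, 11.1 ± 2.98 and 11.3 ± 2.58 TPM. At the other extreme, Ccs, the copper chaperone of superoxide dismutase, had 62.2, 62.2 and 62.2 TPM, and Prmt3, Gucd1, Psmd14, Uvrag, Nsun4, Spsb1, Mkrn1, Mrpl12 and Cnih4 also varied by less than 0.2% of their mean. Counting error alone for Ccs, with 1891 counts in all, is 3.98%, larger than this spread.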

How the data were processed

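RNA-seq had been done on MC38 cells treated with IFN-gamma at 100 ng per mL for 24 hours. Of the 6 libraries the 3 controls were used. Per the labels' protocols, a NEBNext Ultra kit was used on total RNA. Nothing says that strand was kept, so antisense neighbours may share reads. The authors deposited 3 values per gene and library. Of the deposited read counts 88.5 to 88.9% are whole, so they are expected counts, and they were rounded to whole numbers here. The deposited TPM and FPKM were made by the authors, and TPM is scaled to a fixed sum over the table. HISAT2, StringTie and SAMtools (versions not given) and the build GRCm38.p6 are named in the submitters' processing notes. RefSeq annotation of the same build matched 16531 of 16583 genes.

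Ranks, shares and counts of detected genes used deposited TPM. Genes with non-whole counts in any control library (2315, 14.0%) are described as sharing reads. No test was made, since there is 1 group. The coefficient of variation is the square root of the common dispersion of edgeR 4.0.16 (R 4.3.3, TMM, filterByExpr, intercept only). On simulated counts with planted values of 2, 5 and 10%, it returned 1.93, 5.05 and 10.1%. Tables were made with Python 3.11.15, pandas 2.3.3, numpy 2.4.6 and scipy 1.17.1, and figures with matplotlib 3.10.9. The floor is 3 counts over the group. It covers counting error only, as reads without molecular identifiers are not independent molecules.

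The 51 gene lists were chosen with earlier results of these data known, and so was the choice of these libraries. Named are the 25 highest genes by mean TPM, genes from the 5 highest members and the defining markers of each list, list members without counts by example, the 10 most and 10 least variable genes at 10 TPM or more, and Ncoa1, Irf1, B2m and Cd274. Some genes under this rule are not reported here. Other members of a list, with their values, were named after these were seen, as were Cd34, Rps6 and Rps6-ps4. Alternatives were other thresholds (0.5 and 2 TPM, FPKM, CPM), shares by FPKM, by read count or without ribosomal protein genes or 3 interferon lists, other scalings and filters, and leaving out each library.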

Additional observations from a re-analysis of the deposited data

How the results depend on the processing

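Of 71 alternative values 56 stayed close to the reported ones and 15 moved, where close means within 1.5 times for counts and ranks, within 1 SD over the libraries for shares, and within 1 SD of the leave-one-out values for the coefficient of variation. The number of detected epithelial core genes, 3 of 32, became 4 at a threshold of 0.5 TPM, 1 at 2 TPM and 1 when FPKM of at least 1 was asked, and the intestinal identity count stayed at 3 and the mesenchymal count between 28 and 30 under every threshold tried. The share of the 100 most abundant genes, 39.7% of TPM, was 19.2% of read counts, which are not divided by length, and 28.5% with ribosomal protein genes left out. The share of the interferon lists, 6.09% of TPM, was 6.27% of read counts, 8.49% without ribosomal protein genes and 4.59% without the chemokine, interferon and signalling lists, an alternative chosen after seeing the data. The coefficient of variation between libraries ran from 3.06 to 4.43% when each library was left out in turn, highest without control 3, and from 3.61 to 3.68% under other scalings and filters. Of 20 ranks compared, 7 moved, all with CPM in place of TPM. Among them, Cd274 went from rank 876 to 373 and Irf1 from 181 to 100. Vim took rank 19, Gbp2 rank 10, Cxcl10 rank 6 and Gapdh rank 1. The rank of Ncoa1 was 7724 by CPM and 9477 by TPM, within 1.5 times. No paired analysis was possible because the values come from 1 group and from no test. Depth limits genes with few counts: values that rest on a few counts are set largely by counting error.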
